A study of Mus musculus with 12 samples.

Results

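The messages described here encode 10 proteins of antigen presentation by the major histocompatibility complex (MHC): B2m, H2-K1, H2-D1, Tap1, Tap2 and Tapbp of class I, and Cd74, H2-Aa, H2-Ab1 and Ciita of class II. The members were listed by name, and all 10 were found among the 25128 genes and unnamed transcripts of the array, each with 3 probes. RNA was taken from 3 mouse lines, AtT20 (the line of that name is a pituitary corticotroph line), BV2 (an immortalized microglial line) and N18 (a neuroblastoma line). The cells had no treatment, and all lines grew in the same serum-containing medium. The BV2 cells were kept under conditions meant to hold them in a resting state. Each line is an established culture from a single source, grown as 4 plates with separate RNA extractions and 1 single-color array per plate, so the spread between plates does not cover other isolates of the line.

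Class I molecules are found on most nucleated cells and show peptides from the cytosol to CD8 T cells. A heavy chain, here from H2-K1 or H2-D1, pairs with beta-2-microglobulin, the product of B2m. Peptides cut by the proteasome enter the endoplasmic reticulum through a transporter made of Tap1 and Tap2, and tapasin, the product of Tapbp, holds the empty class I molecule at that transporter. Class II molecules show peptides from endosomes to CD4 T cells and are largely restricted to professional antigen-presenting cells. Their alpha and beta chains, such as H2-Aa and H2-Ab1, assemble on the invariant chain Cd74, and Ciita is the coactivator that turns on the class II genes. Microglia carry little of either system at rest and more of both after interferon-gamma, and neural tumor cells are often low in class I.

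In the mouse, 7 of the 10 members lie within the MHC on chromosome 17. The order of genes there places the transporter subunits beside immunoproteasome subunits: Psmb9, Tap1, Psmb8 and Tap2 follow each other. Class I and class II promoters are known to carry a shared element, of which the X2 box (TGACG at its core) and the Y box (ATTGG, bound by NF-Y) are parts, and class I promoters also carry an NF-kappaB site. RefSeq windows of the GRCm38.p6 build, each from 250 bases before to 50 bases after a transcript start, were matched for 6 members (7 windows, 2 of them for H2-K1). Tap2, Cd74, H2-Ab1 and Ciita had no window. The bases just before the start of 4 members are shown because they hold the X2 and Y letters at close to the same distance from each other, and capitals mark those letters, the NF-kappaB consensus and, for B2m, an interferon-stimulated response element (ISRE) core. B2m lies on the plus strand at chr2:122147507-122147686, H2-K1 on the minus strand at chr17:34000348-34000527, H2-D1 on the plus strand at chr17:35262914-35263093 and H2-Aa on the minus strand at chr17:34287824-34288003.
B2m: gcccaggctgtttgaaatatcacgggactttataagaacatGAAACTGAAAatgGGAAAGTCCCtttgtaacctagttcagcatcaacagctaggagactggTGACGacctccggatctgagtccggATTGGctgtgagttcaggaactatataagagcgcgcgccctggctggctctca
H2-K1: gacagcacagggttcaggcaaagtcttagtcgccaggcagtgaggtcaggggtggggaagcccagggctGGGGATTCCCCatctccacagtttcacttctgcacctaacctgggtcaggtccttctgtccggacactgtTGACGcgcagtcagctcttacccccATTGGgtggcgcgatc
H2-D1: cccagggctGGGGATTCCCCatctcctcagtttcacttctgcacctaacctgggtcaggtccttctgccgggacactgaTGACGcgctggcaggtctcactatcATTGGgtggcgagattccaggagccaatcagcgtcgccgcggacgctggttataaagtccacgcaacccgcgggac
H2-Aa: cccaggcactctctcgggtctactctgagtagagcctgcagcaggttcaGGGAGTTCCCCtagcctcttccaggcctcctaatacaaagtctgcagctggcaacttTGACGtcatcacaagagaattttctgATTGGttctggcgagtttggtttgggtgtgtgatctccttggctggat
TGACG followed on the same strand by ATTGG after 19 to 21 bases was found in 5 of the 7 member windows (4 of the 6 members). The 2 windows of H2-K1 overlap and hold the same marked letters. The share of all 32851 windows with this pairing was 0.201%, and its spacing was set after these sequences had been read. The gap was 20 bases in B2m, H2-K1 and H2-D1 and 21 in H2-Aa. TGACG on its own stood in 20.8% of all windows and ATTGG in 37.4%, on either strand. The NF-kappaB consensus, searched on both strands, was in 5 of the 7 member windows (B2m, both of H2-K1, H2-D1 and H2-Aa), thus in 4 of the 6 members, and in 4.51% of all windows. The ISRE core (GAAA, 2 bases of any kind, GAAA) was, on either strand, in 1 member window, that of B2m, and in 3.44% of all. Only exact matches to this pattern were counted, so a response element with other letters would be missed in the remaining windows. The windows of Tapbp and Tap1 held none of the NF-kappaB, ISRE or paired letters. These matches describe the letters only, and they are set beside the levels of the same genes below.

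A level is the log2 intensity of a gene on a plate minus the mean of 10 seminal proteins on that plate, which the study took as zero expression. A gene was called above the threshold when its mean over the 4 plates exceeded 2 SD of the seminal proteins, which came to 0.37 ± 0.11 (SD, n = 4) for the AtT20-labelled plates, 0.56 ± 0.15 for BV2 and 0.74 ± 0.10 for N18. Levels of different genes rest on different probes and are not set against each other. In RNA from whole plates, fewer expressing cells and less RNA per cell cannot be told apart.

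The AtT20-labelled plates stand apart. Their array medians were 10.85 to 11.50, against at most 10.28 for BV2 and 10.54 for N18, and the interquartile range of their probes was 0.38 to 0.78, against 1.28 to 1.73 and 1.91 to 2.21. Of 7 corticotroph markers, 0 were above the threshold there, Pomc, which encodes the precursor of corticotropin, included (0.29 ± 0.26), while the neurofilament gene Nefl was at 4.46 ± 0.48. Averaged over that list, a plate stood at 0.03 to 0.12 there and, among N18 plates, at 1.84 to 2.00. These markers therefore do not bear out the label, and the plates are called AtT20-labelled plates throughout. Whether the narrow probe range of these arrays has a part in the low marker levels was not tested. Of 10 microglial and macrophage markers, 8 were above the threshold in BV2, 2 in N18 and 0 on the AtT20-labelled plates. Of 11 neuroblastoma markers, 10 were above it in N18, 7 in BV2 and 8 on the AtT20-labelled plates. The neuroblastoma list averaged 2.57 to 2.89 per plate in N18, 0.59 to 0.82 in BV2 and 0.93 to 1.77 on the AtT20-labelled plates. The slide of each array is not known, so slide and line cannot be told apart, and 4 arrays per line limit the precision of every value.

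All 6 class I members were above the threshold in both BV2 and N18, and of the 4 class II members Cd74 and H2-Ab1 were. In all, 8 members were above the threshold in BV2 and the same 8 in N18, all but H2-Aa and Ciita, where 53.3% and 55.4% of all genes and transcripts passed. On the AtT20-labelled plates 5 members passed (H2-K1, H2-D1, Tap2, Tapbp and H2-Ab1), where 35.0% of all did. Of the 30 probes, 23 were above the threshold in BV2, 21 in N18 and 11 on the AtT20-labelled plates. All 3 probes were above it for 7 members in BV2, 6 in N18 and 1, H2-D1, on the AtT20-labelled plates. The matching shares over all probes and all genes were not computed, so these probe counts are only described.

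**Figure D1:**
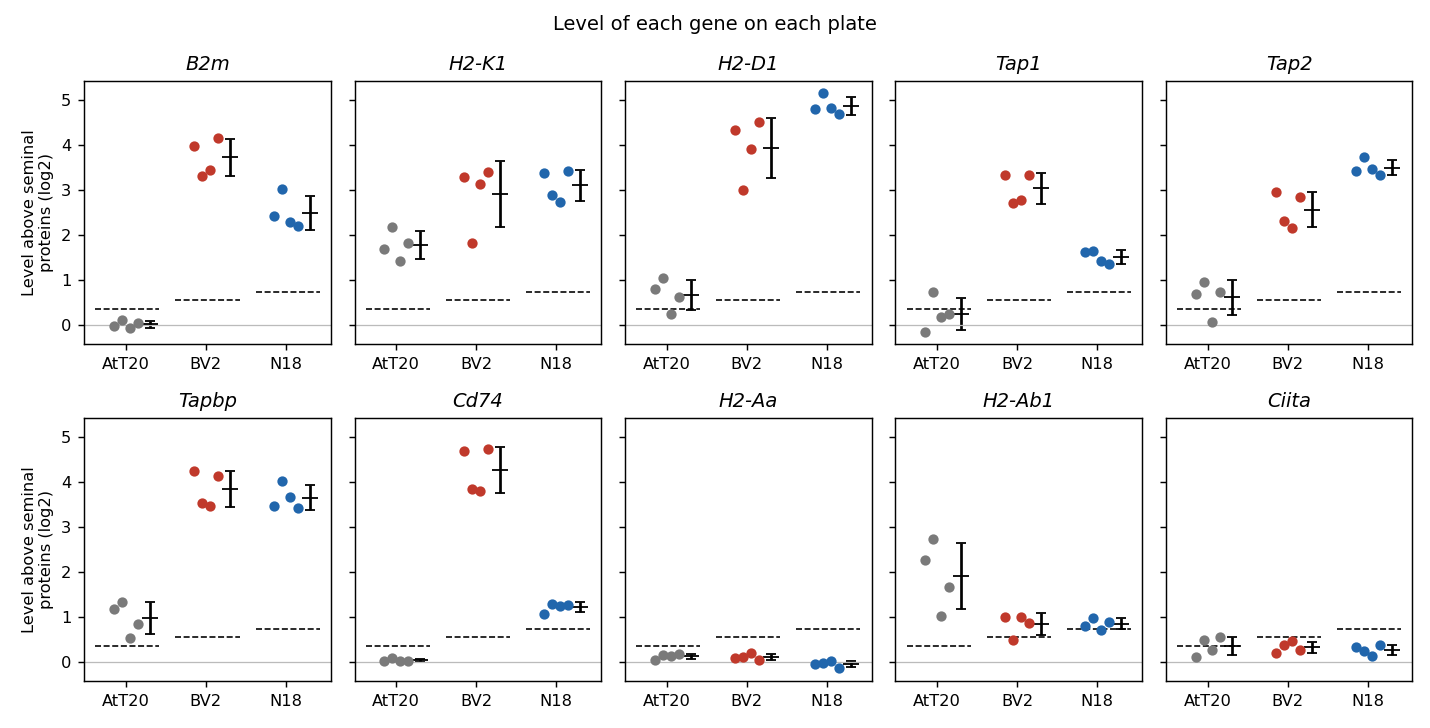
Level of each of the 10 genes on each plate, in log2 units above the mean of the seminal proteins (vertical axis), for the AtT20-labelled plates (gray), BV2 (red) and N18 (blue). Points are plates, bars beside them the mean and SD of 4 plates, and dashed lines the threshold of the line. B2m, Tap1 and Cd74 sit higher on the 4 BV2 plates than on any N18 plate, H2-D1 and Tap2 sit higher on the 4 N18 plates than on any BV2 plate, and H2-Aa and Ciita have means below the threshold in every line.

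B2m encodes the invariant light chain without which most class I molecules do not reach the surface. The level of B2m was 3.99, 3.32, 3.44 and 4.17 on BV2 plates 1 to 4, and 2.43, 3.03, 2.31 and 2.21 on N18 plates 1 to 4. On the AtT20-labelled plates it was -0.02, 0.11, -0.06 and 0.06. Every BV2 plate was above every N18 plate, every N18 plate was above every AtT20-labelled plate, and the last stayed below the threshold.

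H2-K1 encodes the K heavy chain. Its level was 3.29, 1.82, 3.13 and 3.41 in BV2, 3.38, 2.90, 2.74 and 3.42 in N18, and 1.70, 2.19, 1.43 and 1.83 on the AtT20-labelled plates. BV2 plate 2 was well under the other 3 and inside the range of the AtT20-labelled plates, and BV2 and N18 overlapped. H2-D1 encodes the D heavy chain. Its level was 4.33, 3.01, 3.91 and 4.50 in BV2, 4.81, 5.16, 4.83 and 4.69 in N18, and 0.80, 1.04, 0.24 and 0.63 on the AtT20-labelled plates. The 4 N18 plates lay above the 4 BV2 plates on this scale, BV2 plate 2 was again the lowest of its line, and both lines lay far above the AtT20-labelled plates. The promoters of these 2 genes, shown above, carry the same capital letters in the same order.

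The subunits of the peptide transporter lay in opposite orders in BV2 and N18 on this scale. The level of Tap1 was 3.34, 2.71, 2.77 and 3.34 in BV2, 1.62, 1.66, 1.43 and 1.36 in N18, and -0.15, 0.73, 0.19 and 0.25 on the AtT20-labelled plates. That of Tap2 was 2.96, 2.31, 2.16 and 2.85 in BV2, 3.43, 3.74, 3.47 and 3.35 in N18, and 0.71, 0.96, 0.08 and 0.74 on the AtT20-labelled plates. Tap1 was thus higher on every BV2 plate than on any N18 plate and Tap2 higher on every N18 plate than on any BV2 plate, and neither gene overlapped between those lines. Tap1 was below the threshold on the AtT20-labelled plates but above it without plate 1 (0.39). Tapbp, the tapasin gene, was at 4.24, 3.54, 3.47 and 4.13 in BV2, 3.47, 4.03, 3.66 and 3.41 in N18, and 1.17, 1.33, 0.54 and 0.85 on the AtT20-labelled plates. BV2 and N18 overlapped for Tapbp, and both lay above the AtT20-labelled plates.

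The class II genes were measured next. Cd74 encodes the invariant chain, which fills the groove of new class II molecules and steers them to endosomes. Its level was 4.69, 3.85, 3.79 and 4.73 in BV2, 1.06, 1.29, 1.25 and 1.27 in N18, and 0.02, 0.09, 0.02 and 0.03 on the AtT20-labelled plates. The lines did not overlap, and the 4 N18 plates were above the threshold, a call that was lost with olfactory receptor genes as the controls (0.93).

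The chains that Cd74 accompanies did not follow it. H2-Aa, the alpha chain of I-A, was at 0.09, 0.10, 0.20 and 0.05 in BV2, -0.04, -0.02, 0.03 and -0.13 in N18, and 0.04, 0.15, 0.14 and 0.18 on the AtT20-labelled plates. All 12 plates stayed below the threshold. H2-Ab1, the beta chain of I-A, was at 1.01, 0.50, 1.01 and 0.87 in BV2, 0.79, 0.99, 0.72 and 0.90 in N18, and 2.26, 2.72, 1.02 and 1.66 on the AtT20-labelled plates. BV2 and N18 overlapped, and the AtT20-labelled plates were highest. Its call rested on 1 of its 3 probes in each line, which averaged 3.15 ± 0.91 on the AtT20-labelled plates, 1.77 ± 0.48 in BV2 and 1.75 ± 0.16 in N18. The other 2 probes of H2-Ab1 had means between -0.51 and 0.42. Taken as the median of its probes, H2-Ab1 was at 0.25 in BV2 and 0.39 in N18, below the threshold in both lines. Ciita was at 0.19, 0.39, 0.46 and 0.28 in BV2, 0.34, 0.25, 0.12 and 0.37 in N18, and 0.12, 0.50, 0.27 and 0.55 on the AtT20-labelled plates. The lines overlapped. Its mean did not pass in any line, although 3 AtT20-labelled plates were above the threshold of their own plate and the mean of that line passed without plate 1 (0.44). The second probe of Ciita alone was above the threshold, at 0.79 on the AtT20-labelled plates and 0.84 in BV2, on 3 plates of each, and the first probe of H2-Aa at 0.51 on the AtT20-labelled plates, also on 3. H2-Eb1, the beta chain of I-E, was below the threshold in every line (0.06 ± 0.10 in BV2), and Cd74 was the only one of the class II members with 3 probes above the threshold in a line, BV2 and N18.

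The lines were then compared by limma after quantile normalization of the 12 arrays, with p-values adjusted over all 25128 genes and transcripts, and a difference is a log2 difference on that scale. Between N18 and BV2, 4 members were lower in N18 (B2m, Tap1, Tapbp and Cd74), where 21.9% of all were lower, and 0 members were higher, where 19.0% of all were. The median difference of the members was -0.38, against -0.06 for all. Cd74 differed by -3.44 ± 0.12 (SE), which is 10.9-fold (adjusted p = 6.77e-13). Tap1 differed by -1.97 ± 0.21, or 3.92-fold (adjusted p = 9.93e-07), and B2m by -1.86 ± 0.13, or 3.64-fold (adjusted p = 3.84e-09). These 3 kept their direction and passed relative to the seminal proteins as well, with -3.05 for Cd74, -1.52 for Tap1 and -1.23 for B2m. Tapbp was 0.89 ± 0.11 lower in N18 (adjusted p = 6.16e-06), but relative to the seminal proteins it differed by -0.20 (adjusted p = 0.550).

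The heavy chains and Tap2 did not pass between N18 and BV2. H2-K1 differed by -0.47 (95% interval -0.97 to 0.03, adjusted p = 0.128) and, without BV2 plate 2, by -0.73 (adjusted p = 0.00782). Its sign turned on the other scales, to 0.20 relative to the seminal proteins and 0.17 with no normalization. H2-D1 differed by 0.27 (interval -0.11 to 0.65, adjusted p = 0.257) and Tap2 by 0.31 (interval -0.07 to 0.69, adjusted p = 0.181). Both passed as higher in N18 relative to the seminal proteins, at 0.93 for H2-D1 (adjusted p = 0.0140) and 0.93 for Tap2 (adjusted p = 0.00340), which makes 2 members higher, where 38.8% of all were, and 3 lower, where 13.1% of all were. With no normalization the counts were again 2 higher (30.7% of all) and 3 lower (7.58% of all). The scale matters because the median of all genes and transcripts moved with it, from -0.06 after quantile normalization to 0.18 relative to the seminal proteins and 0.15 with no normalization. The share of higher calls among all calls was 46.5%, 74.7% and 80.2% on those scales. H2-D1 also passed with the mean of log2 probes (1.01, adjusted p = 0.000423) and with their median (1.20, adjusted p = 0.0148). H2-Aa (-0.20), H2-Ab1 (-0.29, adjusted p = 0.0743; -0.47, adjusted p = 0.0352, after normexp background correction) and Ciita (-0.18) did not pass.

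**Figure D2:**
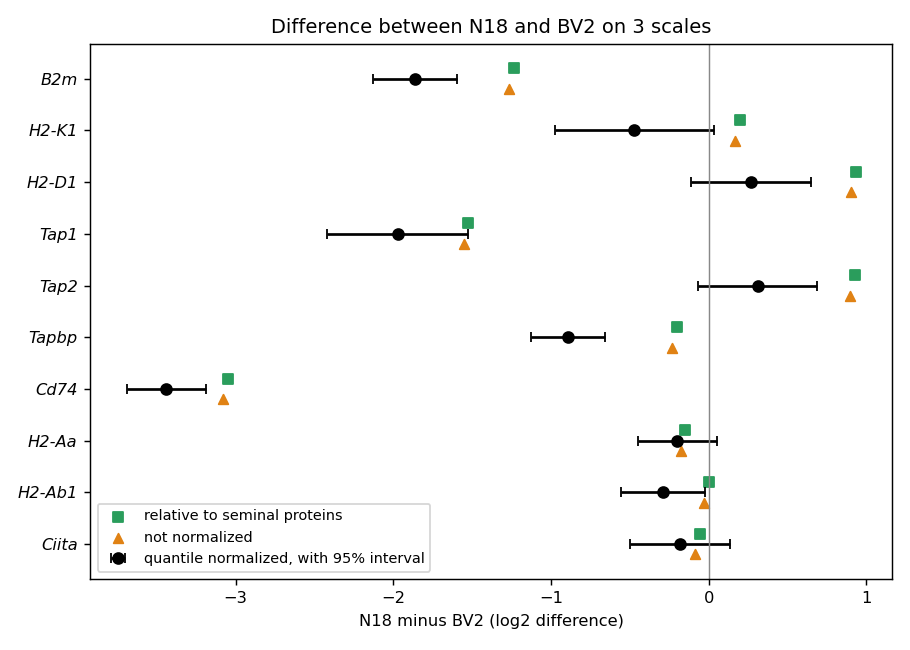
Difference of each gene between N18 and BV2 in log2 units (horizontal axis; below 0, lower in N18), after quantile normalization with its 95% interval (black), relative to the seminal proteins (green) and not normalized (orange). Cd74, Tap1 and B2m lie below -1 on the 3 scales, H2-K1 changes sign between scales, and H2-D1 and Tap2 lie above 0 on each of them.

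The spread of the 3 lines was not equal after quantile normalization. In level it was close to equal, with a median SD of 0.149 on the AtT20-labelled plates, 0.171 in BV2 and 0.146 in N18. The median SD of a gene over the 4 plates after quantile normalization was 0.25 on the AtT20-labelled plates, 0.11 in BV2 and 0.084 in N18, and the fit shared 1 estimate between them. With array weights estimated per line, an alternative added after the data had been seen, 7 members passed between N18 and BV2, 1 higher (Tap2, adjusted p = 0.0133), where 25.9% of all were higher, and 6 lower, among them H2-Aa (adjusted p = 0.0126) and H2-Ab1 (adjusted p = 0.00632), where 35.2% of all were lower. Calls thus rose over all genes and transcripts too, and H2-Aa was below the threshold in both lines.

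The same genes were set against the AtT20-labelled plates, which serve both of the comparisons that follow. In BV2, 6 members were higher (B2m, H2-D1, Tap1, Tap2, Tapbp and Cd74), where 26.6% of all were, and 3 were lower (H2-Aa, H2-Ab1 and Ciita), where 47.0% of all were. Of the latter, H2-Aa and Ciita were below the threshold in both lines, so the order of their levels is not read. The median difference of the members was 1.35, against -0.23 for all. B2m, Tap1 and Cd74 were below the threshold on the AtT20-labelled plates, and their levels in BV2 were at least 4.0-fold, at least 2.3-fold and at least 5.8-fold higher. H2-D1 differed by 2.19 ± 0.18 (adjusted p = 1.47e-08), Tapbp by 1.81 ± 0.11 (adjusted p = 4.22e-10) and Tap2 by 0.90 ± 0.18 (adjusted p = 0.000268), though the call of Tap2 was lost with the median of probes (0.23, adjusted p = 0.451). H2-K1 differed by -0.0012 (interval -0.50 to 0.50, adjusted p = 0.996), but by 1.12 relative to the seminal proteins (adjusted p = 0.00354).

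In N18, 5 members were higher than on the AtT20-labelled plates (B2m, H2-D1, Tap2, Tapbp and Cd74), where 27.8% of all were, and 3 were lower (H2-Aa, H2-Ab1 and Ciita), where 48.6% of all were. H2-Aa and Ciita were again below the threshold in both lines. The level of B2m was at least 1.3-fold higher in N18. H2-D1 differed by 2.46 ± 0.18 (adjusted p = 3.22e-09), Tap2 by 1.21 ± 0.18 (adjusted p = 1.22e-05) and Tapbp by 0.92 ± 0.11 (adjusted p = 1.26e-06). Cd74 passed (adjusted p = 0.0289), but it was below the threshold on the AtT20-labelled plates and its level in N18 gave no bound above 1-fold, so no size is given. That call was lost with array weights per line (adjusted p = 0.128), with the median of probes (adjusted p = 0.331), without AtT20-labelled plate 1 (adjusted p = 0.0543), without N18 plate 3 (adjusted p = 0.0880) and without N18 plate 4 (adjusted p = 0.0676), and its sign turned without normalization (-0.21). Tap1, also below the threshold on the AtT20-labelled plates, did not pass at 0.06 (interval -0.39 to 0.51) but passed as higher relative to the seminal proteins (adjusted p = 1.50e-05). H2-K1 did not pass at -0.47 (interval -0.98 to 0.03, adjusted p = 0.0808), passed as lower with the replicate number as a block (adjusted p = 0.0370), without AtT20-labelled plate 1 (-0.58, adjusted p = 0.0447) and without N18 plate 4 (-0.59, adjusted p = 0.0456), and passed as higher relative to the seminal proteins at 1.32 (adjusted p = 0.000720).

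The 3 class II genes that were lower than on the AtT20-labelled plates differed between scales. H2-Ab1 differed by -2.03 ± 0.12 in BV2 (adjusted p = 4.47e-10) and -2.32 ± 0.12 in N18 (adjusted p = 8.13e-11), and relative to the seminal proteins by -1.07 in each. H2-Aa and Ciita were below the threshold in every line, so no fold is given. Relative to the seminal proteins Ciita differed by -0.03 in BV2 and -0.09 in N18 and H2-Aa by -0.02 and -0.17, of which the last passed (adjusted p = 0.0406). The median of all genes and transcripts was -0.23 in BV2 and -0.25 in N18 after quantile normalization, 0.28 and 0.54 relative to the seminal proteins, and -1.08 and -0.85 with no normalization. Higher calls were 36.2% of all calls for BV2 and 36.4% for N18, against 74.2% and 78.8% relative to the seminal proteins, and with no normalization they were 13.5% for BV2, while for N18 5012 calls were higher and 15846 lower.

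The 3 probes of a gene were then taken apart. Each of the 72000 probes was tested on its own, also added after the data had been seen. This was done after quantile normalization and on no other scale. Between N18 and BV2, 13 of the 30 member probes were lower, where 13.2% of all probes were, and 3 were higher, where 14.5% of all were. B2m, Tap1 and Tapbp had all 3 probes lower in N18, by 1.43 to 2.37 for B2m, 0.87 to 2.46 for Tap1 and 0.88 to 0.92 for Tapbp. H2-D1 and H2-K1 had probes that passed in opposite directions. So had 3 members between BV2 and the AtT20-labelled plates (H2-K1, H2-D1 and H2-Aa) and 2 between N18 and those plates (H2-K1 and H2-Aa).

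For H2-D1 the first probe, in the order of the probe numbers, averaged 1.53 ± 0.40 in BV2 and 4.84 ± 0.27 in N18, a difference of 2.69 (adjusted p = 1.50e-09). The second averaged 5.07 ± 0.57 and 4.85 ± 0.21, a difference of -0.94 (adjusted p = 0.00250), and the third 3.10 ± 1.31 and 4.92 ± 0.22, a difference of 1.28 (adjusted p = 0.0184). Against the AtT20-labelled plates, the first probe of H2-D1 was lower in BV2, at -0.72 (adjusted p = 0.00109), while the second (3.54) and the third (1.72) were higher. In level, however, that first probe was at 0.95 ± 0.33 on the AtT20-labelled plates, under its BV2 mean, so its direction depends on the scale. For H2-K1 the first probe was at 3.02 ± 0.39 on the AtT20-labelled plates, 2.82 ± 0.35 in BV2 and 2.98 ± 0.22 in N18, while the second was at 0.25 ± 0.16, 3.49 ± 1.08 and 2.95 ± 0.49 and the third at 0.03 ± 0.12, 1.92 ± 0.75 and 3.35 ± 0.33. The call of H2-K1 on the AtT20-labelled plates therefore rested on 1 probe, as did those of Tapbp (1.98 ± 0.47, with the other 2 at -0.03 and -0.10) and H2-Ab1. After quantile normalization the first probe of H2-K1 differed from those plates by -1.42 in BV2 and -1.91 in N18. Its levels nevertheless overlapped between the lines. Class I heavy chain genes differ between mouse strains and resemble each other closely, so a probe may bind 1 allele better than another or the message of a neighbouring gene. The labels give no strain, and the part of this in the values was not tested.

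The first probe of Cd74 did not separate N18 from BV2, at 1.77 ± 0.27 and 1.65 ± 0.26 (difference -0.37, adjusted p = 0.159). The second and the third did, at 4.87 ± 0.60 in BV2 against 0.83 ± 0.28 in N18 (difference -4.29) and at 4.63 ± 0.56 against 0.77 ± 0.30 (difference -4.07). Against the AtT20-labelled plates, 19 member probes were higher in BV2 (27.7% of all probes) and 7 lower (34.8% of all), and 15 were higher in N18 (29.8% of all) and 7 lower (36.0% of all). For Cd74 in N18, only the first probe passed in that comparison (adjusted p = 0.000245).

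**Figure D3:**
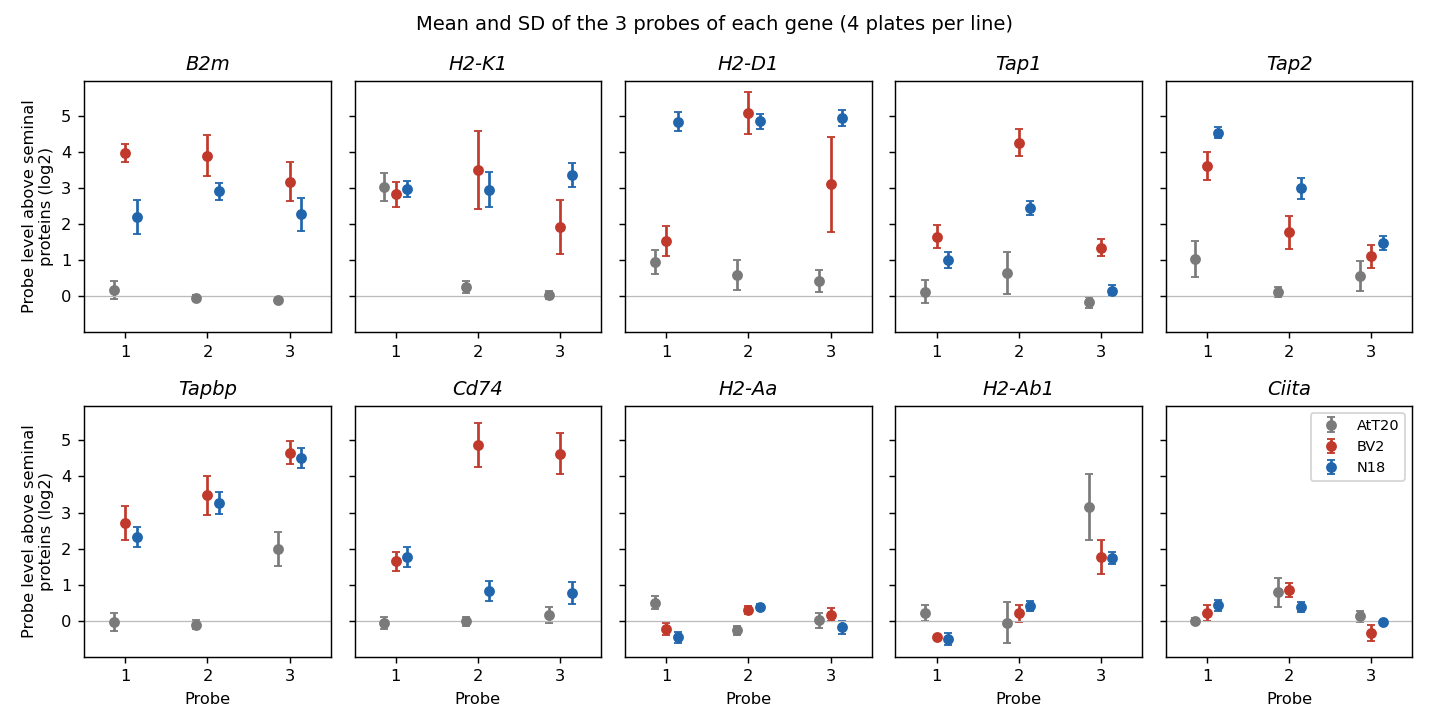
Level of each of the 3 probes of a gene, in log2 units above the seminal proteins (vertical axis), by probe in the order of its number (horizontal axis), as mean and SD of 4 plates, for the AtT20-labelled plates (gray), BV2 (red) and N18 (blue). The probes of B2m keep 1 order of the lines, the first probe of H2-D1 is at 1.53 in BV2 and 4.84 in N18, and H2-Ab1 has only its probe 3 above the threshold.

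Other genes of the pathway were taken from lists by role. Counts above the threshold stand against 53.3% of all in BV2, 55.4% in N18 and 35.0% on the AtT20-labelled plates, and calls between N18 and BV2 against 19.0% of all higher and 21.9% lower. Relative to the seminal proteins those shares were 38.8% and 13.1%. Of 29 class I heavy chains and relatives 22 were matched, and 13 of these (59.1%) were above the threshold in BV2, 13 in N18 and 5 (22.7%) on the AtT20-labelled plates. Between N18 and BV2, 6 were higher in N18 and 5 lower, with a median of 0.09. H2-T23, the mouse Qa-1 gene, which presents leader peptides of class I molecules to NK cell receptors, was at 3.42 ± 0.43 in BV2 and -0.11 ± 0.07 in N18, below the threshold, and thus at least 6.4-fold lower in N18 (adjusted p = 4.01e-12). H2-T24 differed by -2.52 and H2-Q7 by -1.64. These 3 are named as the largest differences of the list.

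Of 17 genes of peptide supply and loading, all matched, 16 were above the threshold in BV2, 16 in N18 and 13 on the AtT20-labelled plates. In N18, 7 were lower than in BV2 and 0 higher, with a median of -0.15, but relative to the seminal proteins 3 were lower and 5 higher. Of the immunoproteasome subunits, Psmb10 differed by -1.07 (adjusted p = 1.05e-05) and Psmb9 by -0.80 (adjusted p = 0.00158), while Psmb8 did not pass at 0.13 (adjusted p = 0.462). Psmb8 lies between Tap1 and Tap2 on the chromosome, and relative to the seminal proteins it was higher in N18 by 0.76 (adjusted p = 0.00551). Psme2, a subunit of the proteasome activator PA28, differed by -0.91, and Erap1, the aminopeptidase that trims peptides to length, by -0.69 (adjusted p = 0.000298). Ide, a cytosolic protease, differed by -1.15 but did not pass relative to the seminal proteins (-0.47, adjusted p = 0.150), nor did Psmb9 (-0.33, adjusted p = 0.286). The chaperones Canx (3.93 ± 0.44 in BV2, 4.82 ± 0.17 in N18) and Pdia3 (4.74 ± 0.45 and 5.42 ± 0.24) were above the threshold in each line. On the AtT20-labelled plates the call of Canx was lost with the median of probes (0.063) and with at least 2 probes above the threshold. Neither gene passed between N18 and BV2 after quantile normalization. In level, the N18 plates of Canx (4.57 to 4.98) lay above its BV2 plates (3.48 to 4.40), while those of Pdia3 overlapped. Calr was below the threshold in every line.

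Of 16 class II chains and genes of class II loading 15 were matched, of which 10 were above the threshold in BV2, 9 in N18 and 3 on the AtT20-labelled plates. In N18, 5 were lower than in BV2 and 1 higher, with a median of -0.18, and relative to the seminal proteins 3 were lower and 3 higher. Ctss, the cathepsin that cuts the last piece of the invariant chain in microglia and other myeloid cells, was at 3.56 ± 0.48 in BV2 and -0.31 ± 0.05 in N18, below the threshold, and thus at least 7-fold lower in N18 (adjusted p = 1.36e-12). Ctsl differed by -1.92 and Ctsb by -1.55, and both were above the threshold in N18. H2-DMa, a chain of the peptide editor H2-DM, was at 1.03 ± 0.14 in BV2 and 1.73 ± 0.11 in N18. Its BV2 plates lay at 0.91 to 1.23 and its N18 plates at 1.64 to 1.88, with no overlap in level. After quantile normalization H2-DMa did not pass (0.17, adjusted p = 0.278). Ifi30, a thiol reductase of endosomes, was at 3.49 ± 0.34 and 3.54 ± 0.20, and its difference of -0.60 (adjusted p = 0.00175) turned to 0.05 relative to the seminal proteins.

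Of 24 regulators 23 were matched, of which 20 were above the threshold in BV2, 18 in N18 and 10 on the AtT20-labelled plates. In N18, 10 were lower than in BV2 and 2 higher, with a median of -0.28, and relative to the seminal proteins 7 were lower and 4 higher. Nlrc5, the coactivator of class I genes, was at 1.29 ± 0.48 in BV2 and -0.14 ± 0.05 in N18 and thus at least 1.4-fold lower in N18 (adjusted p = 2.56e-07). The Nlrc5 message was below the threshold in N18, where H2-K1 and H2-D1 were above it on all 4 plates. Any relation between these levels was not tested. Spi1, a myeloid transcription factor, was at 4.06 ± 0.29 in BV2 and below the threshold in N18 (0.60 ± 0.08), at least 9.9-fold lower there (adjusted p = 4.44e-13). Nfkb1, a subunit of NF-kappaB, differed by -2.07 and Ifnar2, a chain of the type I interferon receptor, by -1.85. Irf1 (1.89 ± 0.31 in BV2, 2.09 ± 0.06 in N18), Irf8 (1.05 ± 0.22 and 1.41 ± 0.15), Rfxap (1.05 ± 0.23 and 1.80 ± 0.25) and Rfxank (0.92 ± 0.23 and 0.89 ± 0.28) did not pass. Of these, only Rfxap did not overlap in level, at 0.78 to 1.31 on BV2 plates and 1.61 to 2.15 on N18 plates. Of the chains of the interferon-gamma receptor, Ifngr2 was above the threshold in both lines (2.51 ± 0.36 and 2.96 ± 0.15) and Ifngr1 in N18 (1.07 ± 0.30) but not in BV2 (0.46 ± 0.19), and neither passed between them.

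All 9 costimulatory genes were matched, of which 7 were above the threshold in BV2, 3 in N18 and 2 on the AtT20-labelled plates. In N18, 6 were lower than in BV2 and 0 higher, with a median of -0.71, and relative to the seminal proteins 5 were lower and 1 higher. Cd86 was at 2.60 ± 0.45 in BV2 and -0.07 ± 0.06 in N18, at least 3.6-fold lower in N18 (adjusted p = 3.72e-12), and Cd80 at 1.62 ± 0.43 and -0.14 ± 0.15, at least 1.8-fold lower (adjusted p = 3.77e-08). Both were below the threshold in N18. Both encode ligands of CD28 on T cells. Icam1, an adhesion molecule of the contact with T cells, was above the threshold in both lines and differed by -1.51.

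Against the AtT20-labelled plates, the lists gave 7 higher and 9 lower in BV2 for the class I relatives, 11 and 4 for peptide supply, 7 and 3 for class II, 16 and 6 for the regulators and 7 and 0 for costimulation. In N18 they gave 7 and 9, 10 and 6, 7 and 3, 11 and 7, and 4 and 3 for the lists in that order. Over all genes and transcripts 26.6% were higher and 47.0% lower in BV2, and 27.8% and 48.6% in N18. These counts moved with the scale: relative to the seminal proteins the class I relatives gave 11 higher and 5 lower in BV2 and 15 and 2 in N18, and peptide supply gave 14 and 0 in each, where 50.4% of all were higher and 17.6% lower in BV2, and 60.7% and 16.3% in N18.

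**Figure D4:**
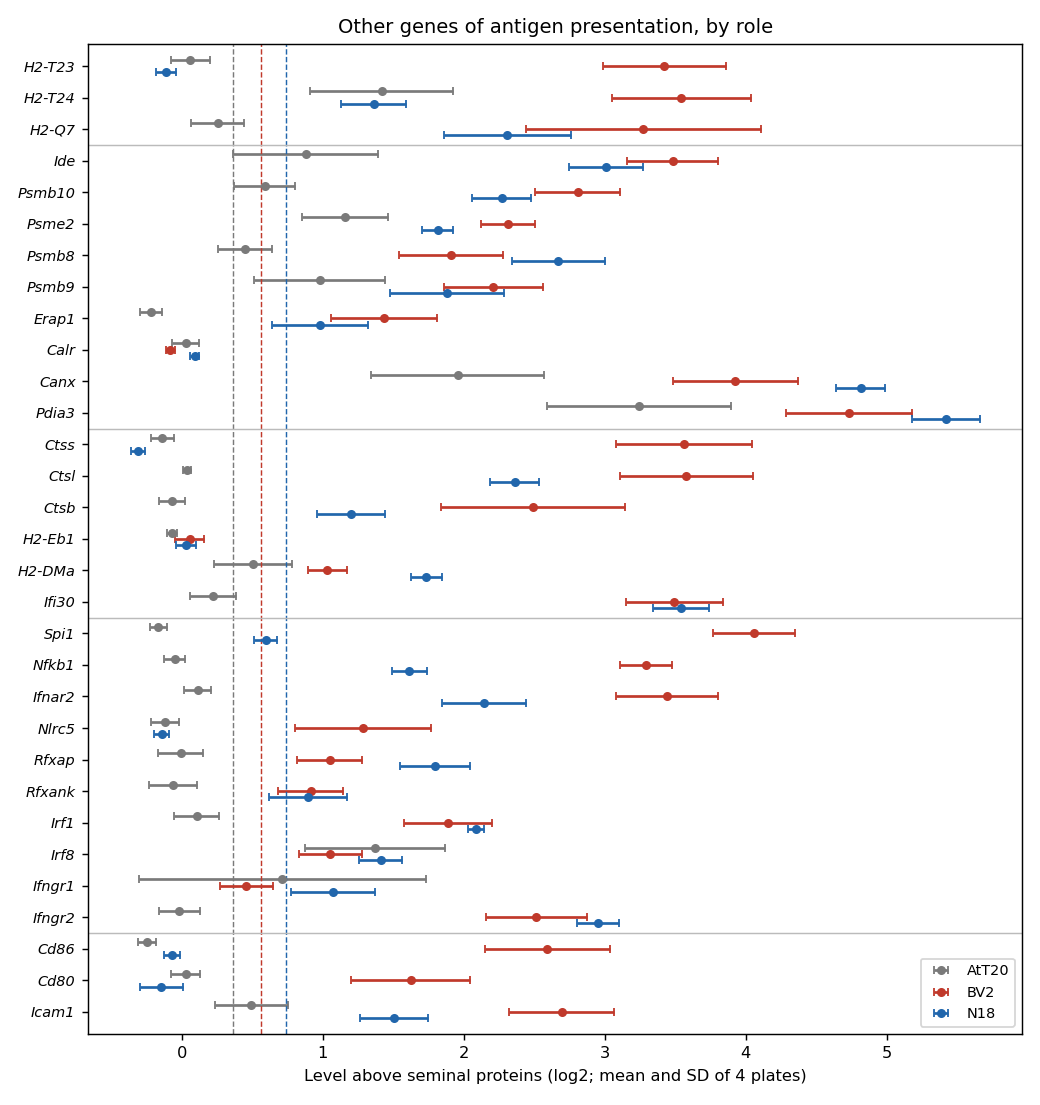
Level of the other named genes of antigen presentation, in log2 units above the seminal proteins (horizontal axis), as mean and SD of 4 plates, for the AtT20-labelled plates (gray), BV2 (red) and N18 (blue), with the threshold of each line as a dashed line of its color. Gray lines part the class I relatives, peptide supply and loading, class II loading, regulators and costimulation. H2-T23, Ctss, Nlrc5 and Cd86 are above the threshold in BV2 and below it in N18, and Canx and Pdia3 are above it in each line. With the median of probes, Canx was not above it on the AtT20-labelled plates.

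Markers of other presenting cells, and of T cells and fibroblasts, were read as well. Of 6 dendritic cell markers 2 were above the threshold in each line, and of 5 B cell markers 0 were above it in BV2, 1 in N18 and 3 on the AtT20-labelled plates, with Ms4a1 below it in each (-0.20 in BV2, -0.28 in N18 and -0.18 on the AtT20-labelled plates). Per plate the B cell list averaged 0.18 to 0.29 in BV2, 0.22 to 0.40 in N18 and 0.21 to 0.64 with the AtT20 label. These ranges overlapped. The dendritic list averaged 0.28 to 0.44 in BV2, 0.41 to 0.51 in N18 and 0.14 to 0.36 for the AtT20-labelled plates. The 3 matched T cell markers were above the threshold in BV2, Cd3d (0.57 ± 0.07) only just and Cd3e at 0.96 ± 0.09. In N18 and on the AtT20-labelled plates only Cd3g was above it. Cd3g was at 4.04 ± 0.33 in BV2, 4.14 ± 0.37 in N18 and 3.46 ± 0.31 on the AtT20-labelled plates. The T cell list averaged 1.66 to 1.96 per plate in BV2, 1.56 to 1.77 in N18 and 0.92 to 1.27 on the AtT20-labelled plates. These averages were carried mainly by Cd3g, which was high in every line, so they are not read as a sign of T cells. Of 4 fibroblast markers, 1 was above the threshold in BV2, 2 in N18 and 3 on the AtT20-labelled plates, and their average was 0.24 to 0.41, 1.01 to 1.31 and 0.32 to 1.03. Averaged over the microglial list, a plate stood at 3.02 to 3.64 in BV2, 0.20 to 0.32 in N18 and -0.03 to 0.11 with the AtT20 label. Tyrobp (1.12 ± 0.14) and Itgam (0.80 ± 0.07) were the microglial markers above the threshold in N18, where Cd74 was at 1.22 ± 0.11, and Csf1r, Ptprc and Adgre1 were at -0.06, -0.16 and -0.41 there. Whether the low Cd74 signal in N18 has a part from other cells was not tested.

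The genes most like B2m, Tap1 and Cd74 were sought among 12172 named genes above the threshold in at least 1 line, by Pearson's r over the 12 quantile-normalized arrays. These arrays fall into 3 lines, so r reflects mainly the order of the line means, and it is given as a description. For Cd74 they were Cd86 (r = 0.998), Aqp9 (0.998) and Tyrobp (0.998). For Tap1 they were Cebpd (0.987), Gpr84 (0.987) and Creb5 (0.985), and for B2m Txnip (0.993), Septin11 (0.992) and Bin3 (0.992). Among the members, r with B2m was 0.98 for Tapbp, 0.93 for Cd74, 0.88 for Tap1, 0.74 for H2-D1, 0.59 for Tap2 and 0.04 for H2-K1, and -0.73 for H2-Ab1.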

How the data were processed

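Total RNA from 4 plates each of lines AtT20, BV2 and N18 was labelled with Cy3 by the authors and hybridized to NimbleGen arrays designed on the mm8 catalog. The deposited values are log2 intensities of 72000 probes per array, which the authors transformed from scanner intensities. Array medians ran from 9.90 to 11.50, so no normalization to a common median was found, and background subtraction was not checked. At most 0.05% of probes had equal values in any pair of arrays, and 0 member probes were at the upper limit. Symbols were found for 17780 of 25631 targets through transcript identifiers.

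Probes were averaged on the linear scale and targets of a gene averaged. Levels are relative to 10 seminal proteins, with 2 SD as the threshold of the study's methods. Lines were compared on 12 quantile-normalized arrays with limma 3.58.1 in R 4.3.3 (lmFit, eBayes with a trend; Benjamini-Hochberg; adjusted p under 0.05). The fit was tested on simulated data. Lower bounds of folds use the threshold of the line below it and are the smallest over 3 scales. Promoter windows are from RefSeq (GRCm38.p6). Python 3.11.15 was used with pandas 2.3.3, numpy 2.4.6 and matplotlib 3.10.9.

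Alternatives were other scalings, normexp background correction, other averages of probes and targets, other thresholds and controls (1063 olfactory receptor genes), only genes above the threshold, only the 8 arrays of a pair, a replicate block and leaving out each plate. Array weights per line and single probes were added after seeing the data. The members, lists and tests were chosen with earlier results of these data known. Named genes are the members, for each list the 3 with the largest N18 to BV2 difference among those above the threshold in at least 1 line, a fixed set of pathway genes, and the 3 genes most like B2m, Tap1 and Cd74. The result of 1 listed gene is not reported here by name, though the counts of its list include it. Signal over background and 4 arrays per line limit precision.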

Additional observations from a re-analysis of the deposited data

Results flagged for a closer look

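Among 126 sets of 4 plates (the members and the other named pathway genes in each line), 3 had a plate far from the other 3 (2.38%), where chance gives about 1 in 20. The level of Ide in N18 was 3.40 on plate 2, against 2.85 to 2.93 on the others. The level of H2-Eb1 was -0.013 on AtT20-labelled plate 1, against -0.09 to -0.08, all below the threshold. Ifngr1, a chain of the interferon-gamma receptor, was at 2.24 on AtT20-labelled plate 1, against 0.16 to 0.27, and its call there rests on that plate. None of the 10 members had such a plate.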

How the results depend on the processing

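The 5 members above the threshold on the AtT20-labelled plates were 3 with the median of probes, 3 with olfactory receptor genes as controls, 2 with at least 2 probes above the threshold, and 5 to 7 when plates were left out. The shares of all genes and transcripts under these settings are not given, so these counts are only described. Between N18 and BV2 the 4 calls became 7 with only the 8 arrays of the pair (where 25.9% of all genes and transcripts were higher and 35.8% lower) and 7 with array weights per line (25.9% and 35.2%), against 19.0% and 21.9%, and 4 to 5 without a plate. The replicate numbers share only a name (correlations of same-numbered plates -0.11 to 0.32): with them as a block the calls were 4 between N18 and BV2, 9 between BV2 and the AtT20-labelled plates and 9 between N18 and those plates, against 4, 9 and 8. For the block and for leaving out plates, the shares of all are likewise not given.

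Some directions turned, and the cause was not tested. The level of Icam1 on the AtT20-labelled plates was -0.058 with the median of probes. For N18 minus BV2, values relative to the seminal proteins, then those not normalized, were 0.20 and 0.17 for H2-K1, 0.047 and 0.017 for Ifi30, 0.20 and 0.17 for Irf1, 0.36 and 0.33 for Irf8 and 0.44 and 0.41 for Ifngr2. H2-Ab1 was 0.0028 relative to the seminal proteins, and with the median of probes H2-Ab1 was 0.0052, Calr -0.031 and H2-DMa -0.047. Against the AtT20-labelled plates, H2-K1 was 1.12 in BV2 and 1.32 in N18 relative to the seminal proteins, 0.75 and 0.44 with the mean of log2 probes, and 1.53 and 1.25 with the median. Without a plate H2-K1 ranged from -0.16 to 0.26 in BV2. Tap1 in N18 was -0.13 without normalization, -0.0065 with the median, and -0.23 to 0.24 without a plate, and Cd74 in N18 was -0.21 without normalization. Apart from leaving out plates, 79 values of members between N18 and BV2 kept their direction and side of the threshold, 13 newly passed, 2 no longer passed and 4 turned. Between BV2 and the AtT20-labelled plates 91 were kept, 4 no longer passed and 3 turned, and between N18 and those plates 86 were kept, 3 newly passed, 3 no longer passed and 6 turned.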
